A study of Mus musculus with 8 samples.

Results

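m6A peaks were described here in the genes of splicing regulators in mouse liver, with and without *Wtap* in hepatocytes. The members were chosen by gene name: every gene whose symbol begins with Srsf (SR proteins), Hnrnp, Sf3, Tra2, Rbfox, Ptbp, Celf, Mbnl, or Clk followed by a digit, apart from 2 Hnrnp genes that are not reported here. They accounted for 58 of 15635 m6A peaks in Wtap flox/flox liver, 67 of 19185 peaks in Wtap-HKO liver and 15 of 3870 rows of the deposited list of differential peaks. Together the peaks lay in 41 of the 11558 genes that had a peak in either genotype.

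The livers came from mice aged 8 weeks on normal chow, of the strain C57BL/6 in the labels and C57BL/6J in the study's methods. Both genotypes carried floxed *Wtap* alleles. The control mice are named by these alleles alone (Wtap flox/flox), and the Wtap-HKO mice also carried Cre under the albumin promoter, which is active in hepatocytes, so that the other cells of the liver kept *Wtap*. For each genotype, 2 libraries of fragments immunoprecipitated with an m6A antibody (IP) and 2 input libraries were sequenced from polyadenylated RNA. The peak lists combined the libraries of a genotype, and RNA had been pooled from several mice. A peak therefore had 1 value per genotype with no spread between replicates, read depth was unknown, and no difference below was tested anew. In whole liver, fewer cells of a type and less RNA per cell cannot be told apart.

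WTAP is the subunit that brings the METTL3 and METTL14 methyltransferase to its RNA targets in the nucleus, and its fly homologue Fl(2)d is known as a regulator of splicing in sex determination. SR proteins bind exonic enhancers and promote exon inclusion, many hnRNP proteins bind silencers and act against them, and SF3 proteins build the U2 particle that recognises the branch point. CLK kinases phosphorylate SR proteins, while the RBFOX, PTBP, CELF and MBNL proteins bind short motifs beside alternative exons. Many genes of these families regulate the splicing of their own transcripts.

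The part of the finding that can be read in sequence is at the beginning of the transcripts. Among the 12 differential peaks that were higher in Wtap-HKO liver, 7 covered some of the first 50 transcribed bases after a RefSeq transcript start. Bases 21 to 50 after that start are shown for these 7, from the RefSeq table of GRCm38.p6, with capitals for the bases inside the differential peak.
Hnrnpab: gagttggcattgtcAGGCGGTGGCACCGCG
Hnrnpd: CGGCGCCATTAAAGCGAGGAGGAGGCGAGA
Hnrnpf: ccgtcgtggaaggAGGACTGCGCCTCGTCT
Hnrnpl: CATGTCGCGGAGGCTGCTGCCCCGGGCGGA
Hnrnpu: CCCCTGCGAGAGGACGTTGCGTGCTCGCTC
Srsf2: TCCGTCAGGTTCGGGTGCTCTGCGGCGGCC
Srsf6: ACCATTGTGTGGCTGACTCGGCCGCCGCTG
The printed stretches are chr11:51606832-51606861 (minus strand, Hnrnpab), chr5:99978889-99978918 (minus, Hnrnpd), chr6:117906802-117906831 (plus, Hnrnpf), chr7:28810910-28810939 (plus, Hnrnpl), chr1:178337766-178337795 (minus, Hnrnpu), chr11:116853045-116853074 (minus, Srsf2) and chr2:162931528-162931557 (plus, Srsf6). In *Hnrnpd*, *Hnrnpl* and *Srsf2* the peak covered all of the first 50 bases. It began at base 35 in *Hnrnpab*, at base 34 in *Hnrnpf*, at base 19 in *Hnrnpu* and at base 21 in *Srsf6*. GGAC, the core in which the METTL3 complex methylates adenosine, was searched on the transcribed strand. The paper found the motif GGACU in the control peaks but not in those of Wtap-HKO liver. It describes the Wtap-HKO peaks as dispersed at the 5′-UTR and the stop codon. Whether the start peaks hold methylated adenosine was not tested here. GGAC occurred in 2 of the 7 windows of 50 bases, at base 35 in *Hnrnpf* and base 32 in *Hnrnpu*. At all 32851 RefSeq starts, 18.9% of the windows of the same length held it. The peaks extend beyond these windows and the rest of each was not searched. A window without GGAC therefore does not show that its peak lacks it.

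Peaks were found in most of the genes. Without the 2 Hnrnp genes not reported here, RefSeq lists 60 protein-coding genes with these names. Of these, 41 (68.3%) had a peak, compared with 45.2% of 21896 protein-coding genes. The 21896 were not limited to genes expressed in liver, and the part of expression in this difference was not tested. No peak was listed for 19 genes, among them *Srsf3*, *Srsf7*, *Hnrnpa1*, *Hnrnph1*, *Ptbp1* and *Tra2a*. A gene without a peak was not called, which says nothing on whether it was expressed or unmethylated. All 35 genes with a peak in Wtap flox/flox liver also had one in Wtap-HKO liver, beside 89.8% over all genes. A further 6 genes had a peak in Wtap-HKO liver alone, that is 14.6% of the 41, beside 23.9% over all genes.

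By family, hnRNP genes held the most peaks, with 25 in 14 genes in Wtap flox/flox liver and 23 in the same number of genes in Wtap-HKO liver. SR genes held 12 and 14 peaks in 8 genes. The SF3 family went from 5 peaks in 4 genes to 9 peaks in 7 genes, and the Celf family from 2 peaks in *Celf1* to 5 peaks in 3 genes. The whole list went from 15635 peaks in 9020 genes to 19185 peaks in 10634 genes. The SF3 count in Wtap-HKO liver includes *Sf3a2*, whose peak lies outside its RefSeq span. Clk genes had 5 and 6 peaks in 3 genes, Mbnl genes 5 and 6 in 2 genes, and Rbfox genes 3 and 2 in 2 genes. *Ptbp3* had 1 peak in each genotype. *Srsf4*, whose protein is a classical SR protein, carried 4 peaks in each genotype, the most of any member over both lists, and all of them were shared. *Hnrnpf* also had 4 rows in the control list, in 2 nested pairs, and 1 in the Wtap-HKO list. In each genotype 3 of the *Srsf4* peaks overlap the RefSeq gene *Gm12992*.

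**Figure D1:**
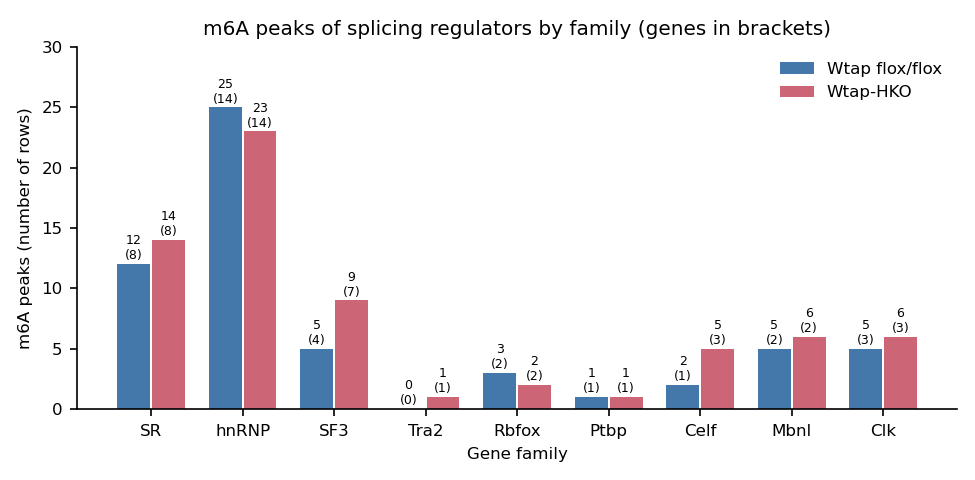
Number of m6A peaks (vertical axis) of each family (horizontal axis) in the Wtap flox/flox list (blue) and the Wtap-HKO list (red), with the number of genes in brackets. hnRNP genes had 25 and 23 peaks, and SF3 genes had 5 and 9, beside 15635 and 19185 in the whole lists.

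The median member peak stood below the middle of both lists in fold enrichment. Fold enrichment, the ratio of IP to input at a peak, had a median of 4.25 over the 58 member peaks and 5.51 over all peaks of that list, and the median member stood at the 36.6th percentile. In Wtap-HKO liver the medians were 5.49 and 5.93, and the median member stood at the 45.9th percentile. The range was wide in both lists, from 1.65 to 40.4 and from 1.75 to 56.9. Exon junctions were crossed by 27.6% of member peaks and 14.5% of all peaks in the control list, and by 35.8% and 19.2% in the Wtap-HKO list. In hnRNP genes, 10 of 25 and 13 of 23 peaks did so.

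Most member peaks were present in both genotypes. Peaks that shared at least 1 exonic base on the same strand with a peak of the other list made up 89.7% of the 58 control peaks (95% Wilson interval 79.2 to 95.2), beside 80.1% of all control peaks. Of the 67 Wtap-HKO peaks, 76.1% were shared (64.7 to 84.7), beside 64.7% of all peaks in that list. These intervals cover counting error over peaks alone, and peaks of a gene are not independent.

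Of the control peaks, 6 had no counterpart in Wtap-HKO liver, and 4 of these lay in *Hnrnpf*, which encodes a protein that binds G-rich RNA. The *Hnrnpf* rows formed 2 nested pairs near the 3′ end of the gene, at chr6:117923760-117924026 and chr6:117924638-117924876. Fold enrichments were 5.27 and 5.71 in the first pair and 8.34 and 3.37 in the second. The other 2 rows were a *Hnrnpll* peak with a fold enrichment of 40.4 and a *Clk3* peak with 4.30.

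The 16 Wtap-HKO peaks without a counterpart included 7 in the 6 genes that had a peak in that genotype alone. *Tra2b*, whose protein is an SR-like splicing activator, had 1 peak with a fold enrichment of 5.76 that began 60 nt after its RefSeq start. *Sf3b1*, the U2 subunit that contacts the branch point region, had 1 peak of 4.01 that began 27 nt after a start. The *Sf3b6* peak of 7.01 covered the start, with its edge 34 nt ahead of it. These 3 peaks thus lay at the beginning of their genes. *Sf3a2* had 1 peak of 4.52 that lay outside its RefSeq span, over the neighbouring gene *Plekhj1*, so that its assignment is uncertain. *Celf2* had 2 peaks, of 6.06 and 4.88, and *Celf4* had 1 of 24.4, none of which reached more than 151 exonic nt. The *Celf2* peak of 4.88 began 24 nt after a RefSeq start that lies inside the gene span.

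The remaining 9 unmatched Wtap-HKO peaks lay in genes that also had control peaks. *Srsf5* had a peak of 2.53 that began 35 nt after its start. *Hnrnpdl* had 2, of 2.96 and 4.16, *Clk3* had 2, of 4.01 and 19.0, and *Hnrnpf*, *Mbnl1*, *Sf3b2* and *Srsf11* had 1 each, of 5.51, 15.4, 1.95 and 2.59. The *Mbnl1* peak of 15.4 had the weakest deposited log10 false discovery rate among all member peaks, -3.03.

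Marker genes of the liver's cell types were counted in the same lists. Of 8 Kupffer cell and leukocyte markers, 3 had a peak in the control list and 7 in the Wtap-HKO list, with *Ptprc*, *Cd68*, *Vsig4* and *Marco* in the second alone. The counts were 4 and 6 of 8 stellate cell markers, 5 and 5 of 7 endothelial markers, 2 and 3 of 5 cholangiocyte markers and 6 and 7 of 10 hepatocyte markers. The part of these cells in the member peaks called in Wtap-HKO liver alone was not tested. *Wtap* itself had 3 peaks in each list, and 1 of its regions was in the differential list with a log2 fold change of -0.74; a peak is not a measure of transcript level.

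In the deposited list of differential peaks, splicing regulators were mostly higher in Wtap-HKO liver, whereas the list as a whole was mostly lower. Of the 15 member rows, 12 were higher, in 12 genes, and 3 were lower, in 2 genes. Over all rows 1556 were higher and 2314 lower. Counted over the genes that had any peak, 12 of 41 members (29.3%, Wilson interval 17.6 to 44.5) had a higher row, beside 12.6% of all genes. This count includes *Srsf1*, whose fold enrichments in the separate lists went the other way, and *Srsf6*, whose fold enrichments were nearly the same. Without these genes the count was 10 of 41 (24.4%, 13.8 to 39.3). A lower row was found for 2 of 41 members (4.88%, 1.35 to 16.1), beside 16.8% of all genes. The changes were of modest size. At a log2 fold change over 1, 4 of 41 members were higher (9.76%, 3.86 to 22.5), close to the 8.25% of all genes. At a log2 fold change under -1, 0 of 41 were lower, with an upper Wilson bound of 8.57%, beside 8.90% of all genes. The median of the higher rows was 0.90 among members and 1.17 over the list.

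**Figure D2:**
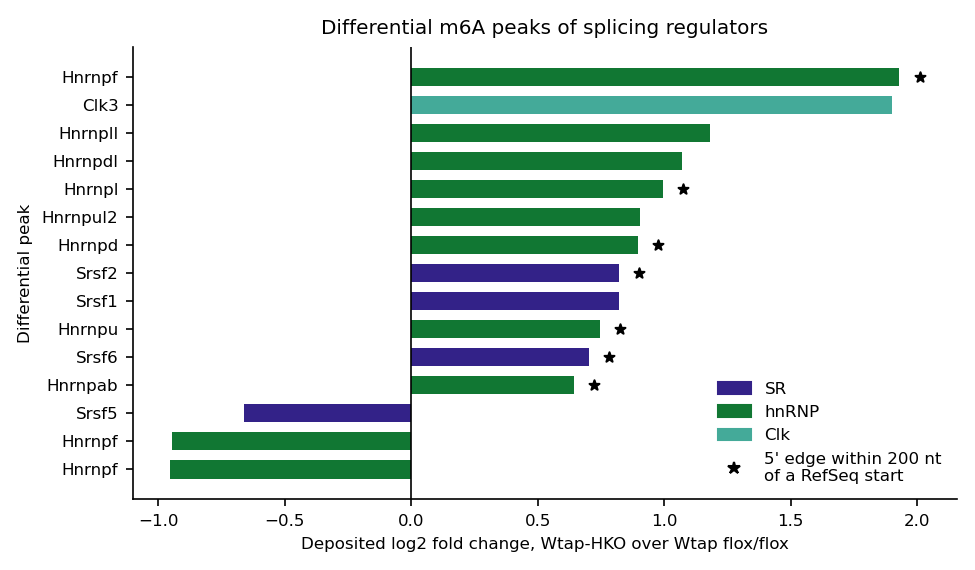
Deposited log2 fold change of m6A enrichment, Wtap-HKO over Wtap flox/flox (horizontal axis), for the 15 member rows of the differential list, coloured by family; a star marks a 5′ edge within 200 nt of a RefSeq start. The 12 higher rows ran from 0.64 to 1.93, and 7 of them carry a star.

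By family, the higher rows fell on 8 of 14 hnRNP genes (57.1%, Wilson interval 32.6 to 78.6). They also fell on 3 of 8 SR genes and 1 of 3 Clk genes (33.3%, 6.15 to 79.2). Over all genes the share was 12.6%. Without *Srsf1* and *Srsf6*, *Srsf2* was the 1 SR gene with a higher row (12.5%, 2.24 to 47.1). The lower rows fell on 1 hnRNP gene (7.14%) and 1 SR gene (12.5%), beside 16.8% of all genes. No row was listed for the 7 SF3 genes with a peak, nor for any Tra2, Rbfox, Ptbp, Celf or Mbnl gene. For SF3 genes the upper Wilson bound was 35.4%, and the other families are smaller, so this absence does not set them apart from all genes.

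Among hnRNP genes, *Hnrnpf* changed in both directions. Its row at chr6:117906815-117907122, with a deposited log2 fold change of 1.93, began 33 nt after an internal RefSeq start. It met a Wtap-HKO peak with a fold enrichment of 5.51 and no control peak, and overlaps the RefSeq gene *4933440N22Rik*. Another 2 rows, nested, at chr6:117923894-117924072 and chr6:117923908-117924056 had values of -0.95 and -0.95. They met the first pair of control peaks near the 3′ end, and no Wtap-HKO peak. Their deposited log10 false discovery rates, -3.45 and -2.82, were the weakest of all member rows. No differential row met the second pair of control peaks. In *Hnrnpf* the peak at the internal start, 6475 nt into the gene span, was thus called in Wtap-HKO liver and those near the 3′ end in control liver.

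*Hnrnpll*, a paralogue of *Hnrnpl* known for regulating splicing in lymphocytes, had a log2 fold change of 1.18 at chr17:80053600-80062274. Fold enrichment there was 3.77 in the control and 9.94 in Wtap-HKO liver. *Hnrnpl*, which binds CA-rich RNA, had a log2 fold change of 0.99 at chr7:28810770-28813904, with fold enrichments of 4.23 and 10.7. Both peaks began at the 5′ side and continued over a junction. The 2 other matched peaks of *Hnrnpl* had 3.2 and 3.79, and 3.69 and 2.53, and neither was in the differential list.

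*Hnrnpdl* had a log2 fold change of 1.07 at chr5:100038707-100038976, where only Wtap-HKO liver had a peak, of 4.16. Its close relative *Hnrnpd*, which encodes the AU-rich element binding protein AUF1, had a log2 fold change of 0.90 at chr5:99976569-99978938 and fold enrichments of 7.05 and 14.0. The second *Hnrnpd* peak, near the middle of the gene, had 2.13 and 1.75. The start peak of *Hnrnpd* therefore stood higher and the inner one slightly lower.

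*Hnrnpul2* had a log2 fold change of 0.91 at chr19:8820000-8823300, with fold enrichments of 4.80 and 11.5. *Hnrnpu*, which encodes a scaffold attachment protein of the nucleus, had a log2 fold change of 0.75 at chr1:178336381-178337797, with 4.49 and 7.39. Its other matched peak, further into the gene, had 3.74 and 2.68. *Hnrnpab* had a log2 fold change of 0.64 at chr11:51606438-51606847, with 2.89 and 6.30.

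Among SR genes, *Srsf2*, which encodes SC35, had a log2 fold change of 0.82 at chr11:116852885-116853094, with fold enrichments of 2.71 in the control and 5.59 in Wtap-HKO liver. The region also overlaps the RefSeq gene *Mfsd11*. For *Srsf1* the 2 kinds of value differed in direction, and for *Srsf6* only the deposited value showed a rise. *Srsf1*, the founding member of the family, had a deposited log2 fold change of 0.82 at chr11:88047642-88048517, while the fold enrichments in the separate lists were 14.5 and 10.1. The *Srsf1* peak covered 180 exonic nt in the control list and 479 in the Wtap-HKO list. *Srsf6* had a deposited log2 fold change of 0.70 at chr2:162931528-162932431, with fold enrichments of 8.61 and 8.51. The direction of these 2 genes is uncertain for that reason. In the other 8 of 10 rows that met 1 peak in each list, the direction was the same on both measures. The sign of the deposited values had itself been read against the fold enrichments of the 2 lists. The paper's counts of lower and higher peaks give the same sign.

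*Srsf5* was the only SR gene with a lower row. The deposited log2 fold change was -0.66 at chr12:80949758-80950177, which ends 330 nt before the 3′ end of the gene, and fold enrichment was 3.88 in the control and 2.34 in Wtap-HKO liver. With the new peak near its start described above, *Srsf5* had a start peak in Wtap-HKO liver alone and a less enriched peak near its end.

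Among the kinases of SR proteins, *Clk3* had a log2 fold change of 1.90 at chr9:57761756-57761936, where control liver had no peak and Wtap-HKO liver had one of 4.01. This peak lay inside the gene, 3178 nt after the RefSeq start. The peak at the 3′ side of *Clk3* had 5.47 and 5.10.

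**Figure D3:**
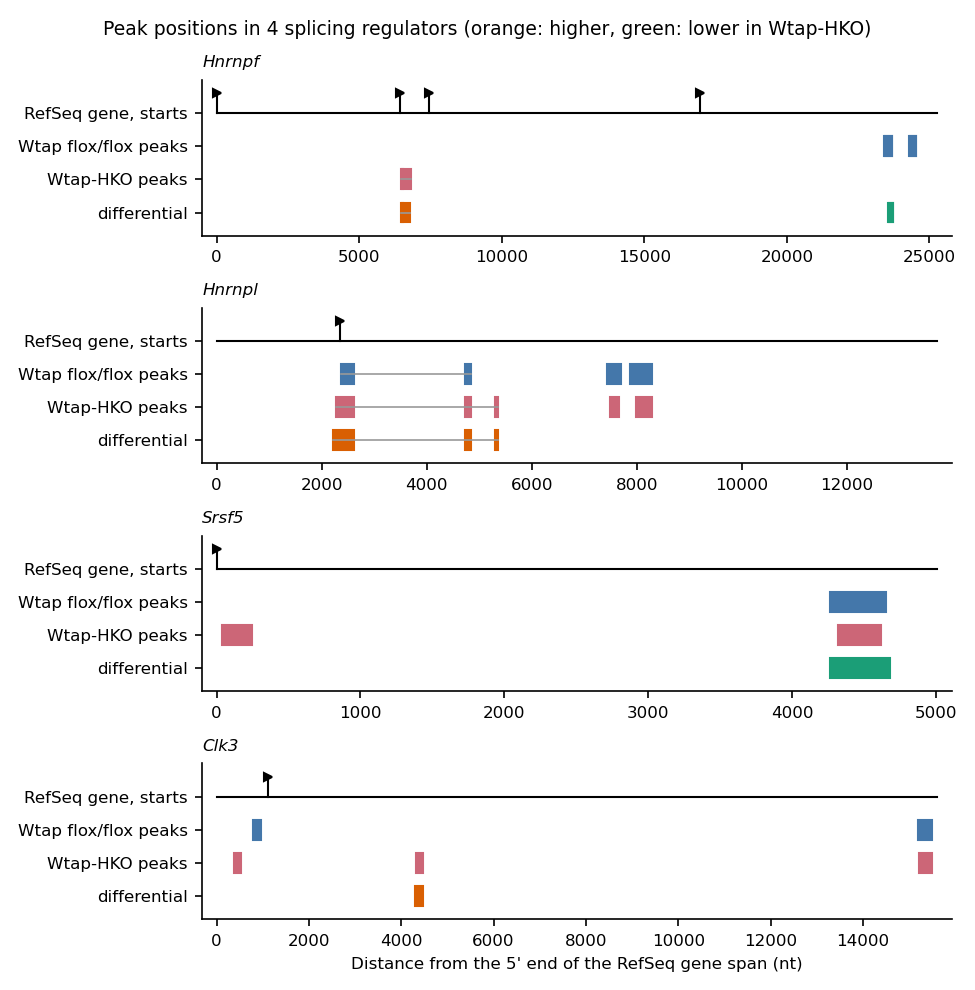
Peaks of the control list (blue), the Wtap-HKO list (red) and the differential list (orange higher, green lower in Wtap-HKO) along 4 genes, in nt from the 5′ end of the RefSeq gene span (horizontal axis), with arrows at RefSeq starts and thin lines joining the exonic parts of 1 peak. In *Hnrnpf* and *Srsf5* the lower rows lie toward the 3′ end, and the higher rows of *Hnrnpf* and *Hnrnpl* begin within 200 nt of a start.

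Fold enrichment was then compared at the 50 member peaks that matched 1 peak of the other list and no more. The lists were made separately, so the ratio was read against that of all 10499 matched peaks and against the rank of each peak within its own list. The median log2 ratio of Wtap-HKO over control was 0.37 among members (95% interval of the median 0.09 to 0.61) and 0.01 over all matched peaks. This interval, like those of medians below, covers the scatter between peaks alone, and peaks of a gene are not independent. The log2 ratio was above 0 at 33 of the 50 member peaks (66.0%), beside 50.4% of all matched peaks. In rank within its own list, the median shift was 6.63 percentile points for members and -3.34 over all matched peaks.

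By family, the median log2 ratio was 0.30 for 20 hnRNP peaks, of which 15 were above 0, and 0.04 for 12 SR peaks, of which 6 were above 0. For the 5 SF3 peaks it was -0.09, with 1 above 0. For 5 Mbnl peaks it was 0.61, for 4 Clk peaks 0.69, and for the 2 *Celf1* peaks 0.76. These differences between families were not tested, as each family has few peaks and peaks of a gene share their transcript.

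*Clk1*, whose own splicing responds to stress, had the highest ratio, 1.46 on the log2 scale, from a fold enrichment of 1.69 to 4.65 at a peak near its 5′ end. *Hnrnpll* followed with 1.40, *Hnrnpl* with 1.34, *Hnrnpul2* with 1.26 and *Hnrnpab* with 1.12. All but *Clk1* were in the differential list. The lowest ratio was that of *Srsf5*, -0.73. *Srsf10*, which encodes a splicing repressor that acts when dephosphorylated, had -0.65 at a start peak, from 17.3 to 11. An inner *Hnrnpl* peak had -0.54, *Srsf1* -0.52 and *Hnrnph2* -0.48, the last from 6.37 to 4.56. Of these 5 peaks, those of *Srsf10* and *Hnrnph2* and the inner *Hnrnpl* peak were not in the differential list.

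In the smaller families the values were as follows. The *Celf1* peaks had fold enrichments of 3.11 in the control and 5.88 in Wtap-HKO liver near the start and 2.06 and 3.11 near the end. *Mbnl2*, one of the muscleblind genes, had 4.41 and 8.00 at its first peak, 4.62 and 7.03 at the second and 2.54 and 3.98 at the third. *Mbnl1* had 2.20 and 2.16 at one peak and 6.25 and 9.0 at another. All 3 peaks of *Mbnl2* were thus more enriched in the Wtap-HKO list, and *Mbnl1* had one that was and one with nearly the same value. *Clk2* had 5.76 and 11.2 near its start and 3.10 and 4.16 near its end, in a region that overlaps the RefSeq gene *Gm45927*. The *Ptbp3* peak had 4.94 and 6.82. *Rbfox2* had 2 control peaks, of 3.51 and 5.80, that met a single Wtap-HKO peak of 8.36. *Rbfox3*, known as the neuronal antigen NeuN, had the highest fold enrichments after matching, 29.0 and 56.9, with a log10 false discovery rate of -6.86 in the control, weaker than at most member peaks.

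Among SF3 genes, *Sf3b5* had 8.14 and 6.40 at one peak and 3.18 and 4.78 at another, at the very start of the gene. *Sf3b4* had 3.97 and 3.16, *Sf3a1* 4.24 and 4.17, and *Sf3b2* 1.86 and 1.75. The start peak of *Sf3b5* was the one that was higher in Wtap-HKO liver.

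**Figure D4:**
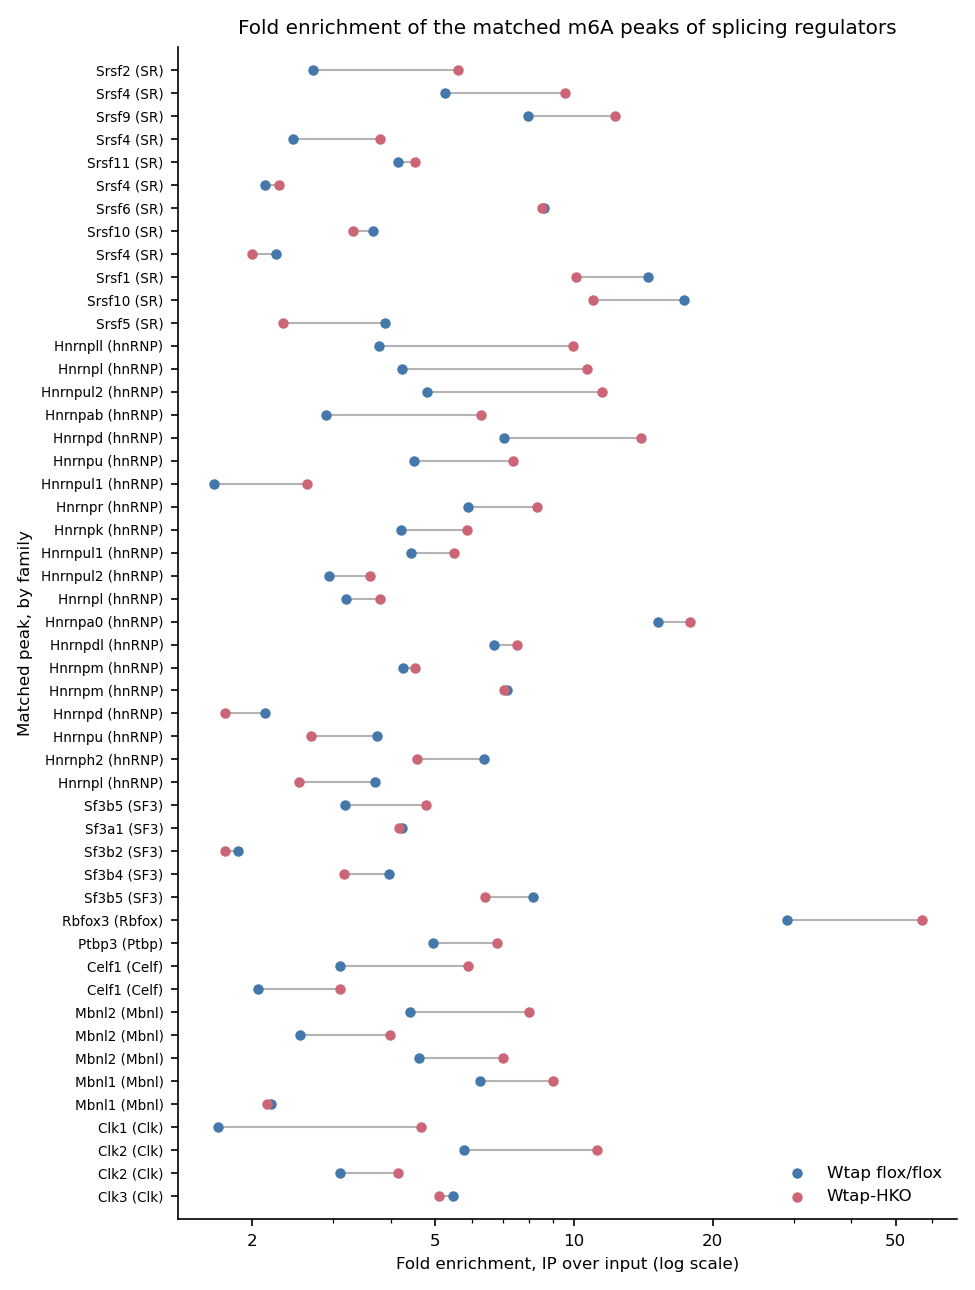
Fold enrichment, IP over input (horizontal log axis), of the 50 matched member peaks in Wtap flox/flox (blue) and Wtap-HKO liver (red), with each pair joined by a line and grouped by family (vertical axis). The red point lies to the right of the blue one at 33 of 50 peaks, and at 1 of 5 SF3 peaks.

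The ratios were then divided by the position of the peak in the transcript. Of the matched member peaks, 15 began within 200 nt of a RefSeq start in at least one genotype, and their median log2 ratio was 0.72 (95% interval 0.24 to 0.99), with 12 above 0. The 27 member peaks that began elsewhere had a median of 0.10 (-0.15 to 0.49), with 15 above 0. No start was given for the genes of the other 8. The same held over the whole series: 1358 matched peaks at starts had a median of 0.80, and 6391 elsewhere had -0.16. Members at starts were thus close to all peaks at starts. Those elsewhere had a higher median than other peaks elsewhere, with an interval that reached down to -0.15. The peaks elsewhere are not all inner ones. The *Hnrnpk* peak, far from a listed start, reached the 5′ end of the gene span in Wtap-HKO liver.

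The share of peaks at starts was counted for each list. In the control list, 31.9% of the 47 member peaks in genes with a listed start began within 200 nt of it (Wilson interval 20.4 to 46.2), beside 13.2% over all peaks. In the Wtap-HKO list it was 36.8% of 57 (25.5 to 49.8), beside 22.5%. Measured from the 5′ end of the gene span instead, the shares were 20.7% of 58 and 25.8% of 66 for members, and 10.6% and 18.1% for all peaks. Within 200 nt of the 3′ end of the span lay 5.17% and 6.06% of member peaks, beside 9.93% and 8.19% of all peaks.

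Among the higher differential rows, 7 of the 10 member rows in genes with a listed start began within 200 nt of it (70.0%, Wilson interval 39.7 to 89.2), beside 52.6% of such rows over the whole list. Of the lower rows, 0 of 3 member rows did so, beside 2.71% over the list. Higher rows at starts were thus found over the whole list as well as in these genes.

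**Figure D5:**
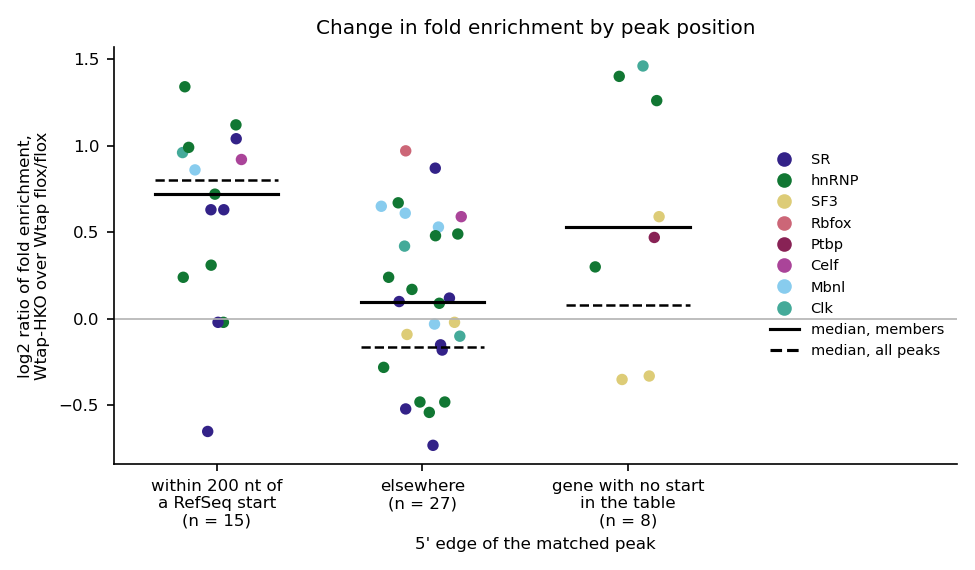
log2 ratio of fold enrichment, Wtap-HKO over Wtap flox/flox (vertical axis), for the 50 matched member peaks by the place of their 5′ edge (horizontal axis), coloured by family. Solid lines are member medians (0.72 at starts, 0.10 elsewhere) and dashed lines the medians over all matched peaks (0.80 and -0.16).

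The rest of the splicing machinery was looked at through a list of 107 other splicing genes, made up of snRNP proteins, U2 auxiliary factors, spliceosomal helicases and further RNA-binding proteins. Of these, 82 had a peak, 71 in the control list and 78 in the Wtap-HKO list. A higher differential row was found for 12 of the 82 (14.6%, beside 12.6% of all genes) and a lower row for 9 (11%, beside 16.8%). The median log2 ratio over their 119 matched peaks was 0.25, with 76 above 0. The median was 0.37 among members and 0.01 over all matched peaks, so an upward shift was not particular to the members. The highest log2 fold changes were those of *Dhx38*, a helicase of the second splicing step (1.77), *Scaf4* (1.68) and *U2af2*, the large subunit of the factor that binds the polypyrimidine tract (1.44). The lowest were those of *Pcbp1*, a poly(C)-binding protein (-0.97), the kinase *Dyrk1a* (-0.90) and *Puf60* (-0.84).

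Some regions could belong to a neighbouring gene. Another RefSeq gene overlapped 10 of the 58 control peaks, 13 of the 67 Wtap-HKO peaks and 4 of the 15 differential rows, those of *Hnrnpd*, *Hnrnpf*, *Hnrnpll* and *Srsf2*. Whether the libraries kept the strand of the RNA was not given in the sources used here, so reads of overlapping genes cannot be told apart.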

How the data were processed

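Poly(A)+ RNA of mouse liver was fragmented, immunoprecipitated with an m6A antibody and sequenced with its input. Per the labels and the study's methods, reads were processed with fastp (version 0.19.11), aligned with BWA (version 0.7.12) to GRCm38, and peaks were called with exomePeak on IP over input, replicates of a genotype combined. HOMER (version 4.9.1) is also named in the submitters' processing notes. The deposited fold enrichment is a ratio of IP to input per peak. The deposited log2 fold changes of the differential list are the authors' own comparison of the genotypes. They were used because the member rows come from that list. The paper's methods give a P-value cutoff of 0.01 and a fold change above 1. Its supplementary figure legend gives an absolute log2 fold change over 1 instead. Rows of the deposited list start at log2 fold changes of 0.32 and -0.26, so it was not cut at the limit in the legend. The limit of 1 on the log2 scale used here is therefore stricter than the list. The deposited log10 false discovery rates were treated as a score.

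Rows of the lists were taken by gene symbol. Peaks were called shared if they had at least 1 exonic base in common on the same strand, and were matched where each met 1 peak only. Starts, spans and sequences came from RefSeq tables of GRCm38.p6, without transcript models, so that exons and UTRs were not annotated. Distances to starts use genes with a start in the table. Shares carry 95% Wilson intervals, for counting error only. Medians carry 95% order-statistic intervals, which cover the scatter between single peaks. Both treat peaks of a gene as independent and hold no spread between mice. Calculations used Python 3.11.15, pandas 2.3.3 and SciPy 1.17.1, and the overlap and distance steps were checked on simulated peaks. No column was left unmatched to a group.

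Genes named were those with a differential row, those with the most peaks in each family, those with peaks in 1 genotype only, the 5 highest and 5 lowest ratios, and the 3 highest and 3 lowest other splicing genes. The remaining members with values are named to account for every peak class. The members, gene lists and comparisons were chosen with earlier results of these data known.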

Additional observations from a re-analysis of the deposited data

How the results depend on the processing

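Alternatives covered the limits on fold enrichment and false discovery rate, the overlap rule, the merging of overlapping rows, the distance windows and leaving out *Srsf4*, the member with the most peaks. Peak counts, shared shares and the direction of the median ratio held under each of them. The share of member peaks at the 5′ end of the gene span, 20.7% in the control and 25.8% in Wtap-HKO liver, was 31.9% and 36.8% by RefSeq starts, also chosen after seeing the data. It was 29.3% and 28.8% by midpoints in the first 10% of the span, where the order of the genotypes turned; the cause was not tested. With an absolute log2 fold change over 1, the 12 higher differential rows became 4 and the 3 lower rows became 0. The median log2 ratio of 0.37 was 0.72 at peaks within 200 nt of a RefSeq start, a division chosen after seeing the data, and 0.10 elsewhere. Merging the nested *Hnrnpf* rows, also chosen after seeing the data, left 2 lower rows. Leaving out *Srsf1* and *Srsf6*, chosen likewise, left 10 higher rows. No paired analysis was possible because the lists combine the replicates of a genotype, and for the same reason no replicate could be left out. Depth, and so the fewest reads behind a peak, is unknown.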
